A study of Mus musculus with 8 samples.

Results

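The 10 apolipoprotein genes described here (Apoa1, Apoa2, Apoa4, Apoa5, Apob, Apoc1, Apoc2, Apoc3, Apoe and Apom) were taken as every probe whose RefSeq transcript carries one of these symbols. They had 12 probes of the 55681 on the array, and made up 10 of the 17531 genes and transcripts that could be tested. Each of the 12 probes was well above background in 8 of 8 livers, and none was lost to the filter on dim probes.

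The livers came from 4 homozygous Pus1 mutant mice and 4 mice with wild-type Pus1, 2 females and 2 males of each genotype, aged 14 to 16 weeks. Pus1 encodes a pseudouridine synthase, an enzyme that turns uridines of transfer RNAs and other RNAs into pseudouridine. All the animals were C57BL/6J after 5 generations of backcrossing, and none was treated. The labels name no tissue-restricted deletion, and how the allele was made is not described there. Each of 4 Agilent arrays, read in 2 colours, paired a mutant with a wild type of its own sex, so that mutant female 1 shared array 1 with wild-type female 1, and so on. The mutant was labelled with Cy5 on arrays 1 (females) and 3 (males) and with Cy3 on arrays 2 (females) and 4 (males).

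A level below is the normalized brightness of a gene's probe in a liver on the log2 scale, and a ratio is the log2 of mutant over wild type unless another pair is named. Pus1 itself read 6.33, 6.82, 6.62 and 6.75 on the log2 level scale in mutants 1 to 4, against 8.47, 8.93, 8.45 and 8.81 in wild types 1 to 4, a log2 ratio of −2.03 (limma, adjusted p = 0.0567). The hepatocyte markers were at 16.6 to 17.2 (mean log2 level) in the 8 livers. Between 36.8% and 37.9% of the spots were well above background in male livers and between 42.2% and 44.0% in female livers. Wild-type female 2 stood apart from the other females. Over 17510 genes its deviations from the mean of the 8 livers correlated at −0.188 to −0.061 with theirs, while theirs correlated at 0.545 to 0.754 with each other. Its Xist level (10.4) and its Ddx3y level (6.12) were on the side of the other females (Xist 8.88 to 9.47, Ddx3y 6.03 to 6.11). It shared array 2 with mutant female 2, and the genotype ratios of the 10 genes are also given without that array. So are those of each other named gene whose ratio changed by over 1.5 times when that array was left out.

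Apolipoproteins are the protein part of the particles that carry lipids through the blood. Hepatocytes make most of them. Apob is the structural backbone of very-low-density lipoprotein, Apoa1 and Apoa2 are the main proteins of high-density lipoprotein, and the small C proteins and Apoe move between particles, where they set how fast triglycerides are hydrolysed and how fast remnants are taken up. Their messenger RNAs are among the most abundant of the liver.

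The genes fall into clusters and single loci in the mouse genome (RefSeq, GRCm38.p6). Apoa1 (chr9:46228630-46230469), Apoc3 (chr9:46233050-46235636), Apoa4 (chr9:46240844-46243458) and Apoa5 (chr9:46268608-46271921) lie within 43.3 kb. Apoc2 (chr7:19671579-19677941), Apoc1 (chr7:19689480-19692659) and Apoe (chr7:19696244-19701310) lie within 29.7 kb that also hold Apoc4 (chr7:19678084-19681460). Apoa2 (chr1:171221564-171226379), Apob (chr12:7977629-8016839) and Apom (chr17:35128997-35131801) stand alone.

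The 250 bases before the annotated transcript start are shown for the 3 genes to which the results below return most, Apoa1, Apoc2 and Apom. They are read 5′ to 3′ on the strand of the gene, from RefSeq on GRCm38.p6, at chr9:46228380-46228629 (plus strand), chr7:19677942-19678191 (minus strand) and chr17:35131802-35132051 (minus strand). Capitals mark matches to any of the motifs named after them.
Apoa1: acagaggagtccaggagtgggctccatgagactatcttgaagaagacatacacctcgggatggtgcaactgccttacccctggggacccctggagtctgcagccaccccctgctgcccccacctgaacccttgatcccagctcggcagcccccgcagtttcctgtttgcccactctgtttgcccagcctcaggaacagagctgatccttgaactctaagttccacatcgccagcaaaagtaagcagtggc
Apoc2: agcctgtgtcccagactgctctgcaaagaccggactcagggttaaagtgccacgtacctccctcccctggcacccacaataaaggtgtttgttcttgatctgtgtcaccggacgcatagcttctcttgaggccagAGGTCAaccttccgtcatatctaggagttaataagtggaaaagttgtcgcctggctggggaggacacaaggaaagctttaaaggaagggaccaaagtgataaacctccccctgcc
Apom: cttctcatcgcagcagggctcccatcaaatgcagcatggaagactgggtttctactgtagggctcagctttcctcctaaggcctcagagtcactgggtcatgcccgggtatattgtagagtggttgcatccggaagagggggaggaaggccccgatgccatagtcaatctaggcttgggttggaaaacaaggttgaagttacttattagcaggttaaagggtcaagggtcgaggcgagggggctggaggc
The motifs, searched on both strands, were the TATA box TATAAA, the nuclear receptor half-site AGGTCA, the HNF4 site CAAAGTCCA, the C/EBP site TTGCNNAA, the E-box CACGTG and the CCAAT box CCAAT. The Apoc2 window held AGGTCA, from 115 to 110 bases before the start, as did 14.0% of all 32851 mouse windows of this length. The Apoa1 and Apom windows held no match to these letters. RefSeq windows were at hand for 8 of the 10 genes, 12 windows in all, as some genes have several annotated starts. TATAAA stood in 5 of the 12, before starts of Apoa2, Apoa5, Apob and Apoe (12.4% of all windows). The Apoa2 match (window chr1:171224804-171225053) and the Apoe match (window chr7:19698622-19698871) lay before starts inside the span of the gene. CACGTG stood in 2 windows, both of Apoa5 (6.02%), and TTGCNNAA in 2, of Apoa2 and Apob (9.56%). AGGTCA stood in 2, of Apoa2 and Apoc2 (14.0%), and CCAAT in 2, both of Apoa2 (33.8%). CAAAGTCCA (0.384% of all windows) was found before none of the 8 genes.

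The main question of the design is whether gene expression in the liver differs between Pus1 mutants and wild types. None of the 10 apolipoprotein genes passed an adjusted p of 0.05 for genotype in limma (0 of 10), against a background of 0 of 17531 tested genes, which is 0%. At an unadjusted p under 0.05 the count was also 0 of 10, against 8.9% of all tested genes. Without array 2, which holds wild-type female 2, the adjusted count was again 0 of 10. The fitted log2 ratio of mutant over wild type was above 0 for 4 genes and below 0 for 6. Its median was −0.07 over the 10 genes and −0.01 over all tested genes, and the median of its size was 0.10 and 0.12. No gene of the 10 lay on the same side on all 4 arrays (9% of all genes were higher on all 4 and 8.69% lower on all 4), and for none were the 4 mutant and 4 wild-type levels separate (2.2% of all genes). For Apoa2, Apoc1 and Apoe all or nearly all Cy5 spots of the probe used were saturated. The sign of their ratio followed the dye on each array, so these counts say little about genotype for them. The array ratios of the 10 genes spread widely before the dye term was taken out. The SD of the ratio over the 4 arrays had a median of 0.41 for the 10 genes and 0.26 for all tested genes, a description with no test. This SD counts an offset between the dyes as spread, so it is not scatter between livers alone.

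**Figure D1:**
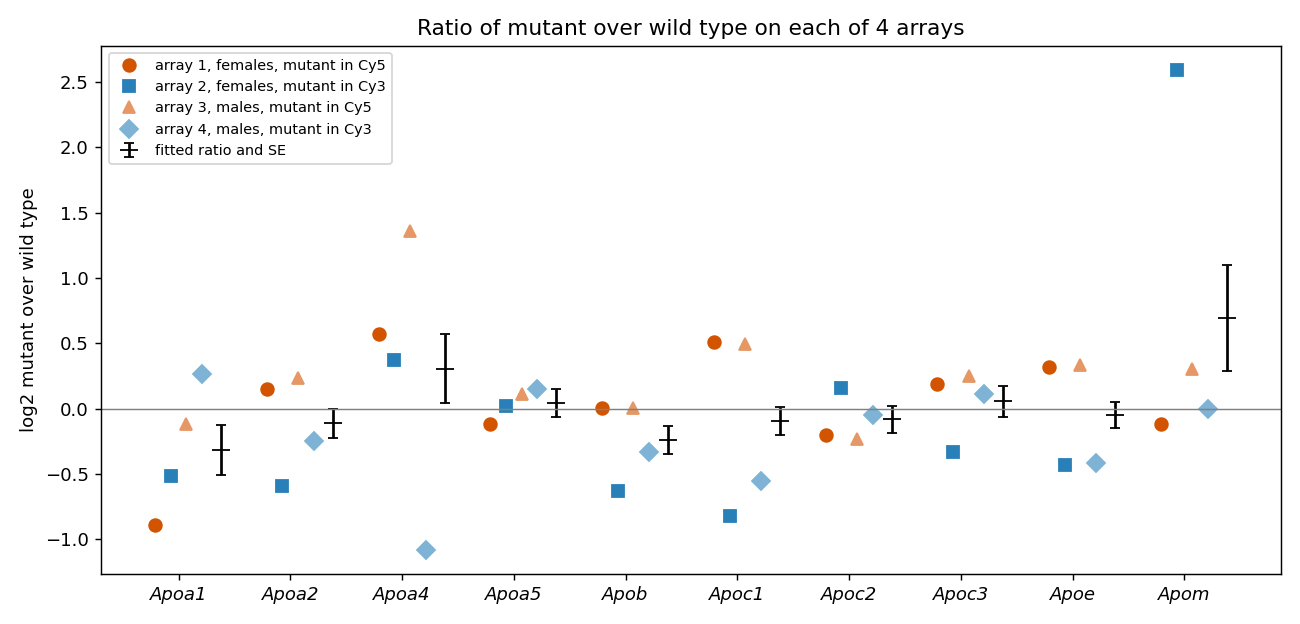
The log2 ratio of mutant over wild type (vertical axis) is plotted for each of the 10 genes on each of the 4 arrays, with the fitted ratio and its standard error in black at the right of each group. For Apoa2, Apoc1 and Apoe the arrays with the mutant in Cy5 (orange) lie above 0 and those with the mutant in Cy3 (blue) below it, and the Apom point of array 2 (2.59) lies far from the other 3.

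The ratios differed by array. Their median over the 10 genes was 0.08 on array 1, −0.38 on array 2, 0.25 on array 3 and −0.15 on array 4, while the median over all genes was 0.0012, −0.05, 0.02 and −0.02. Of the 10 genes, 6, 4, 8 and 3 were above 0 on arrays 1 to 4. The arrays on the positive side, 1 and 3, are those with the mutant in Cy5. Without array 2 the fitted ratio was −0.12 for Apoa1, −0.03 for Apoa2, −0.06 for Apoa4, 0.07 for Apoa5 and −0.16 for Apob. It was −0.02 for Apoc1, −0.13 for Apoc2, 0.17 for Apoc3, −0.05 for Apoe and 0.05 for Apom, and the sign of Apoa4 turned.

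Among the high-density lipoprotein genes, Apoa1, which encodes the main protein of the particle and the activator of the enzyme LCAT, had log2 levels of 15.07, 15.03, 15.96 and 16.01 in mutants 1 to 4, against 15.97, 15.55, 16.08 and 15.74 in wild types 1 to 4. The mutant females were below every other liver, and the mutant males lay among the wild types. The array ratios were −0.89, −0.52, −0.12 and 0.27, and the fitted ratio was −0.32 ± 0.19 (SE, 4 arrays; limma, adjusted p = 0.581). Leaving out 1 array at a time, it ran from −0.51 to −0.12, at −0.12 without array 1 or without array 2. The 10 spots of this probe on each array had a coefficient of variation of 5.96% to 8.25% within a liver, which is technical spread alone.

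Apoa2, the other major protein of the particle, read 18.75, 18.22, 18.91 and 18.62 in mutants 1 to 4, against 18.60, 18.81, 18.68 and 18.87 in wild types 1 to 4. The levels of the genotypes overlapped, and the fitted ratio was −0.11 ± 0.11 (limma, adjusted p = 0.710). A further Apoa2 probe had a fitted ratio of −0.08 ± 0.12 (adjusted p = 0.795 with each probe tested on its own).

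Apom, a lipocalin of high-density lipoprotein that carries sphingosine-1-phosphate, read 15.62, 15.37, 14.43 and 14.54 in mutants 1 to 4, against 15.73, 12.77, 14.13 and 14.54 in wild types 1 to 4. Wild-type female 2 was the lowest of the 8, more than 1 log2 unit below the next liver. The array ratios were −0.11, 2.59, 0.30 and −0.00094. The fitted log2 ratio was 0.70 ± 0.41 (1.62-fold; limma, adjusted p = 0.570). Without array 2 it was 0.05, and without array 4 it was 1.34 with an adjusted p of 0.0104, in a fit of 3 arrays that called 1490 of 17531 genes. In that fit array 2 was the only array with the mutant in Cy3. With the dye term its ratio left no residual, so this p does not measure the spread that wild-type female 2 brings.

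For Apob, the backbone of very-low-density lipoprotein, the probe that stood for the gene (A_55_P1957198) read 15.74, 15.44, 16.06 and 16.12 in mutants 1 to 4, against 15.73, 16.07, 16.05 and 16.45 in wild types 1 to 4. The array ratios were 0.0028, −0.63, 0.0045 and −0.33. Both ratios away from 0 came from the arrays with the mutant in Cy3. The fitted ratio was −0.24 ± 0.11 (limma, adjusted p = 0.541), the smallest adjusted p of the 10 genes. The other Apob probe, A_52_P441070, had a fitted ratio of 0.0038 ± 0.18 (adjusted p = 0.995 with each probe tested on its own), and the mean over both probes gave −0.12.

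Of the genes whose proteins act on lipoprotein lipase, Apoc2 encodes its cofactor. Apoc2 read 15.45, 15.53, 15.88 and 15.90 in mutants 1 to 4, against 15.66, 15.37, 16.11 and 15.95 in wild types 1 to 4. The fitted ratio was −0.08 ± 0.10, with array ratios of −0.20, 0.16, −0.23 and −0.05 (limma, adjusted p = 0.776).

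Apoc3, whose product inhibits lipolysis and slows remnant uptake, read 18.15, 18.01, 17.93 and 17.54 in mutants 1 to 4, against 17.96, 18.33, 17.68 and 17.43 in wild types 1 to 4. It was higher in the mutant on arrays 1, 3 and 4 (0.19, 0.25 and 0.11) and lower on array 2 (−0.33). The fitted ratio was 0.06 ± 0.12 (limma, adjusted p = 0.875).

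Apoa5, whose product aids triglyceride hydrolysis, was the steadiest member, with 11.79, 12.07, 11.88 and 12.06 in mutants 1 to 4, against 11.90, 12.05, 11.77 and 11.91 in wild types 1 to 4. Its 8 levels spanned 0.30 log2 units, the least of the 10 genes, and its fitted ratio was 0.04 ± 0.11 (limma, adjusted p = 0.899). The SD of its array ratios was 0.12, against 0.26 in the median gene.

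Apoc1, a small protein known to slow lipolysis and particle uptake, read 18.73, 18.04, 18.86 and 18.34 in mutants 1 to 4, against 18.22, 18.87, 18.36 and 18.89 in wild types 1 to 4. The levels fell into a higher set made of the 4 Cy5 livers and a lower set made of the 4 Cy3 livers, with both genotypes in each. The fitted ratio was −0.09 ± 0.11 (limma, adjusted p = 0.751).

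Apoe, the ligand by which remnants bind the LDL receptor and its relatives, read 18.72, 18.40, 18.89 and 18.43 in mutants 1 to 4, against 18.40, 18.83, 18.56 and 18.85 in wild types 1 to 4. Here too the Cy5 livers of both genotypes held the higher values. The array ratios were 0.32, −0.43, 0.33 and −0.42, and the fitted ratio was −0.05 ± 0.10 (limma, adjusted p = 0.867).

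Apoa4, known from intestine and, in mice, also from liver, read 9.16, 9.04, 10.11 and 8.54 in mutants 1 to 4, against 8.59, 8.67, 8.74 and 9.62 in wild types 1 to 4. The high values were those of mutant male 3 and wild-type male 4, the males labelled with Cy5. Its array ratios were 0.57, 0.37, 1.36 and −1.08, and the fitted ratio was 0.31 ± 0.27 (limma, adjusted p = 0.671). Of 5 enterocyte markers, Alpi, Sis, Lct and Vil1 were too dim to be tested, and Fabp2, an intracellular fatty acid carrier, had a fitted ratio of −0.38 ± 0.11 (adjusted p = 0.541).

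**Figure D2:**
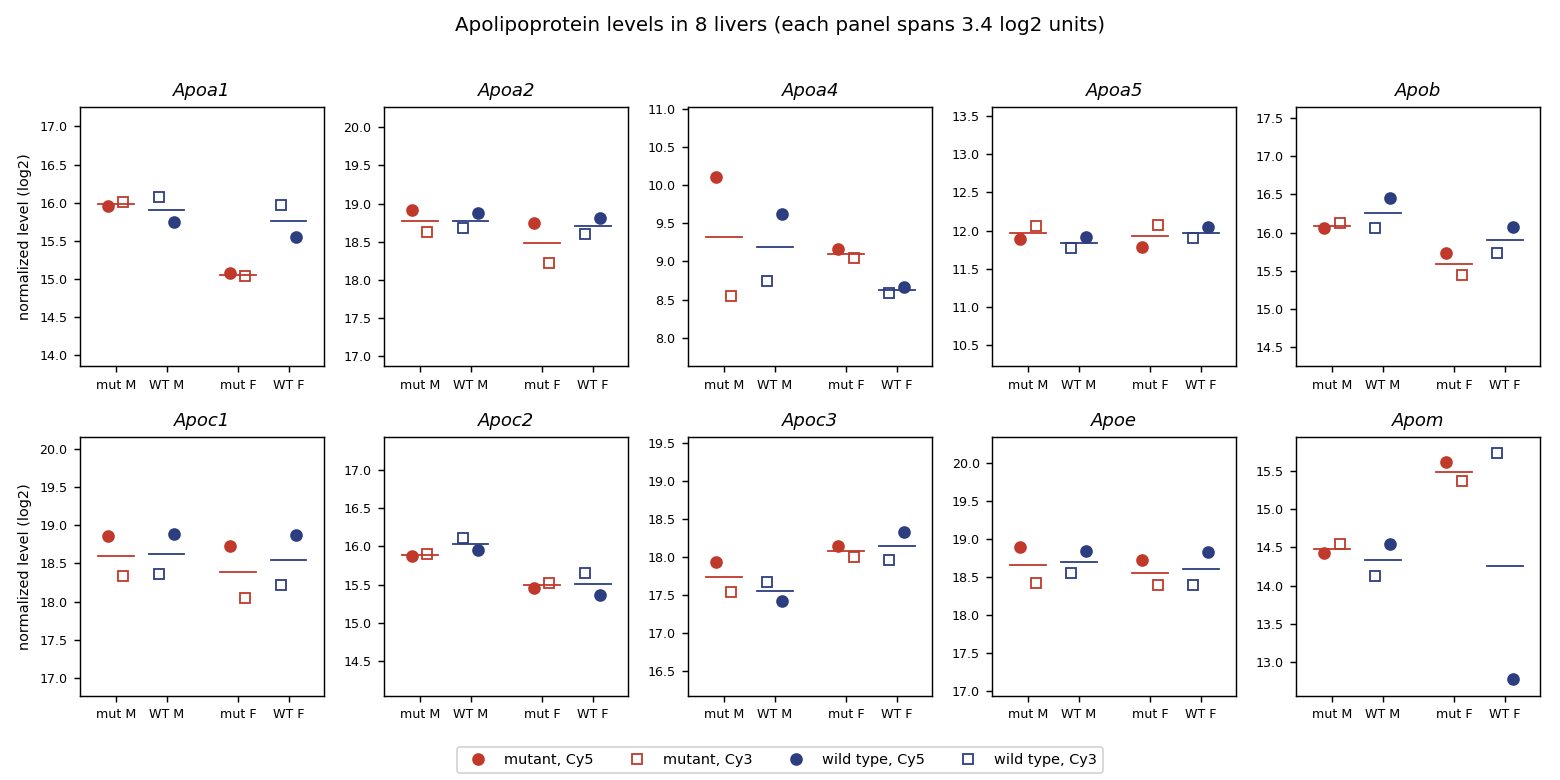
Normalized log2 levels of the 10 genes are shown for each liver, with 2 mutant males, 2 wild-type males, 2 mutant females and 2 wild-type females in each panel, filled circles for Cy5, open squares for Cy3 and a line at each pair's mean. Apom spans 2.96 log2 units, mainly through wild-type female 2 at 12.77, while Apoa5 spans 0.30. In the Apoc1 and Apoe panels the filled circles lie above the open squares.

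The scatter by dye was described through the scanner's saturation marks. In the Cy5 livers 24 to 40 spots were marked saturated, and 11 to 13 of these in each liver were spots of apolipoprotein genes. In the Cy3 livers the count was 0. Over the 4 Cy5 livers, 39 of 40 Apoe spots, 4 of 4 Apoc1 spots, 4 of 4 spots of the Apoa2 probe used for the gene and 2 of 4 spots of the other Apoa2 probe were saturated. The remaining 7 genes had no saturated spot. For Apoc1, 2 of 4 mutants and 2 of 4 wild types were thus saturated and have only a lower bound, with the Cy5 signal at the ceiling of 778367 scanner units.

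In the unsaturated Cy3 channel the raw Apoe signal was 259008 in mutant female 2, against 200986 in wild-type female 1, and 200846 in mutant male 4, against 198832 in wild-type male 3. For Apoc1 the Cy3 signals were 198707 in mutant female 2, against 176786 in wild-type female 1, and 183732 in mutant male 4, against 178264 in wild-type male 3. For Apoa2 they were 233096 in mutant female 2, against 225438 in wild-type female 1, and 225534 in mutant male 4, against 212172 in wild-type male 3. After scaling each channel, the log2 difference of mutant minus wild type in Cy3 was 0.24 in females and −0.04 in males for Apoe, 0.04 and −0.01 for Apoc1, and −0.08 and 0.03 for Apoa2. These are differences between livers on separate arrays with 1 liver of each genotype in a sex, so that they have no test.

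In the fit, the dye term, the log2 ratio of Cy5 over Cy3 left after loess, was 0.60 ± 0.11 for Apoc1 (limma, adjusted p = 0.483), 0.38 ± 0.10 for Apoe (adjusted p = 0.576) and 0.31 ± 0.11 for Apoa2 (adjusted p = 0.663). These 3 of the 10 genes had an unadjusted dye p under 0.05, against 7.35% of all genes, and adjusted ones were found for 0%. Apoa4, with no saturated spot, had a dye term of 0.66 ± 0.27 (adjusted p = 0.663). Among the other unsaturated genes it was 0.24 for Apob and 0.16 for Apoc3, and below 0 for Apoa5 (−0.04), Apoc2 (−0.14), Apoa1 (−0.19) and Apom (−0.60). The part of saturation in these terms was not tested.

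**Figure D3:**
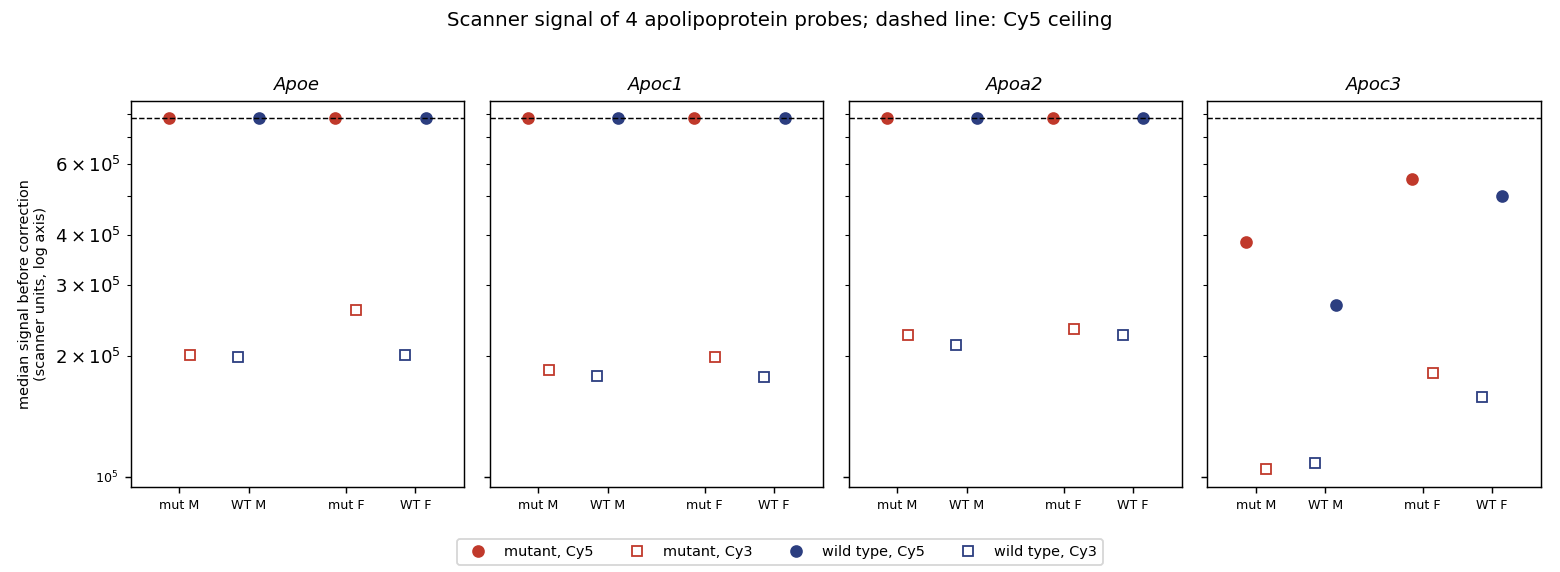
Scanner signal before background correction, on a log axis, is shown for Apoe, Apoc1, Apoa2 and Apoc3 in each liver, with filled circles for Cy5, open squares for Cy3 and a dashed line at the Cy5 ceiling of 778367. The 4 Cy5 livers sit at the ceiling for Apoc1 and Apoa2, and for Apoe at it or just below (777658 in wild-type male 4), whereas the Apoc3 signals stay below it, from 266601 to 548706.

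Since no array held both sexes, sex was compared between arrays by the separate channels. No apolipoprotein gene passed an adjusted p of 0.05 for sex (0 of 10, against 0.211% of 17510 genes), and 2 had an unadjusted p under 0.05 (against 16.3% of genes). Fitted ratios of male over female were above 0 for 7 genes, with a median of 0.16 on the log2 scale against 0.01 over all genes. Male and female levels did not overlap for 2 of 10 genes, Apoc2 and Apoc3, against 24.3% of all genes.

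Apoc2 read 15.88 to 16.11 in the 4 males and 15.37 to 15.66 in the 4 females, with means of 15.96 ± 0.11 and 15.50 ± 0.12 (SD, n = 4 each). The log2 ratio of male over female was 0.46 ± 0.15 (1.38-fold; limma, adjusted p = 0.245). Apoc3 went the other way, at 17.43 to 17.93 in the males and 17.96 to 18.33 in the females, a log2 ratio of −0.47 ± 0.20 (limma, adjusted p = 0.338). Neither difference passed the threshold, and the 2 non-overlapping genes of 10 are no more than the share over all genes.

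Apoa1 averaged 15.95 ± 0.14 in males and 15.41 ± 0.44 in females (SD, n = 4 each). The ranges overlapped through wild-type female 1 at 15.97. The log2 ratio was 0.54 ± 0.15 (1.45-fold; limma, adjusted p = 0.203). Without a term for the shared array, the adjusted p (limma) was 0.0296 for Apoa1 and 0.0297 for Apoc2, in a fit that called 3196 genes. That fit takes both livers of an array as independent, though sex differed only between arrays. Its p-values therefore do not measure the spread between arrays.

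Apom averaged 14.41 ± 0.20 in males and 14.87 ± 1.41 in females (SD, n = 4 each), with a log2 ratio of −0.46 ± 1.07 (limma, adjusted p = 0.859). The result rested on array 2. Without that array the ratio was −1.29, and without array 1 it was 0.34. Each of these fits kept only 1 array of females. Its livers left no residual, so the fit cannot measure the spread between female livers. The other females, at 15.37 to 15.73, were all above the males, at 14.13 to 14.54.

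The probes of Apob disagreed on sex. Probe A_55_P1957198 averaged 16.17 ± 0.19 in males and 15.75 ± 0.26 in females (SD, n = 4 each), a log2 ratio of 0.43 ± 0.18 (limma on each probe, adjusted p = 0.321). Probe A_52_P441070 averaged 12.98 ± 0.26 in males and 13.50 ± 0.23 in females (SD, n = 4 each), a log2 ratio of −0.52 ± 0.22 (limma on each probe, adjusted p = 0.325). The file assigns both to the same RefSeq transcript, and their places on it were not looked at here. The level of Apob by sex therefore depends on the probe that stands for it.

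**Figure D4:**
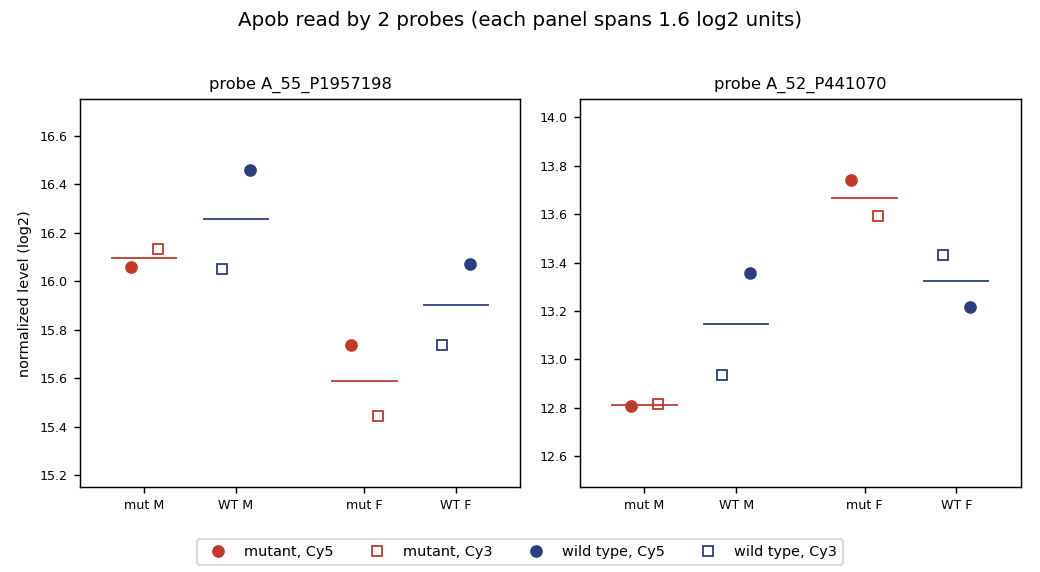
Normalized log2 levels of Apob in each liver are shown for its 2 probes, with 2 mutant males, 2 wild-type males, 2 mutant females and 2 wild-type females per panel, filled circles for Cy5, open squares for Cy3 and a line at each pair's mean. With probe A_55_P1957198 the male mean is 16.17 and the female mean 15.75, and with probe A_52_P441070 they are 12.98 and 13.50.

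The remaining ratios of male over female were 0.39 ± 0.72 for Apoa4, 0.18 ± 0.16 for Apoa2, 0.15 ± 0.16 for Apoc1, 0.10 ± 0.13 for Apoe and −0.04 ± 0.16 for Apoa5, with adjusted p-values up to 0.920 (limma). For Apoa2, Apoc1 and Apoe these values rest on the 4 Cy5 livers at or next to the ceiling, which are lower bounds. The smaller share of spots above background in males moved with every one of these comparisons, and its part was not tested.

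Whether the genotype effect differed between the sexes was tested directly. None of the 10 genes passed an adjusted p of 0.05 (0%, as over all 17510 genes), and 1 had an unadjusted p under 0.05, against 5.83% of all genes. That gene was Apoa1, with a genotype log2 ratio of 0.07 in males and −0.71 in females, a difference of 0.78 ± 0.21 (limma, adjusted p = 0.823). The Apom ratio was 0.15 in males and 1.24 in females, a difference of −1.09 ± 0.73 (limma, adjusted p = 0.857). This test had 1 residual degree of freedom.

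Apom, with the widest span of levels, was compared with every other named gene for likeness over the 8 livers. By the Euclidean distance between levels centred on each gene's mean, the nearest were Gm13315 (0.910), Serpina3c (0.933), Cd209f (0.954), Lpl (1.06) and Slc25a12 (1.07), against a median distance of 2.60 over all genes. In each of these 5 genes wild-type female 2 had the lowest level of the 8 livers, which the choice by likeness to Apom favours. Lpl, which encodes lipoprotein lipase, read 8.56 to 10.3 in the mutants and 8.02 to 9.90 in the wild types.

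Among 11 other apolipoproteins and proteins bound to lipoproteins, 0 passed the adjusted threshold for genotype. At an unadjusted p under 0.05, 1 was higher and 1 lower, against 8.9% of all tested genes in either direction. Saa4, a serum amyloid A protein of high-density lipoprotein made without an acute-phase stimulus, had a fitted ratio of −0.42 ± 0.11 and was below 0 on all 4 arrays (limma, adjusted p = 0.541). Apof, an inhibitor of lipid transfer, was at 0.35 ± 0.13 (adjusted p = 0.541), and at 0.20 without array 2. Apoc4, which lies between Apoc2 and Apoc1, was at 0.15 ± 0.10 (adjusted p = 0.600).

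Of 13 genes of lipoprotein assembly and secretion, 0 passed either threshold for genotype, and their median log2 ratio was −0.04. P4hb, the shared subunit of the microsomal triglyceride transfer complex, was at 0.33 ± 0.15. Mia2, which helps load lipoproteins for export from the endoplasmic reticulum, was at −0.31 ± 0.15. A1cf, a cofactor of Apob mRNA editing, was at −0.28 ± 0.14. Without array 2 these ratios were 0.16, −0.13 and −0.19.

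Of 10 genes of lipolysis and particle remodelling, 9 could be tested and 0 passed either threshold, with a median of −0.01. Lipc, the hepatic lipase, was at 0.27 ± 0.13, Lcat, which esterifies cholesterol on high-density lipoprotein, at 0.28 ± 0.16, and Lpl at 0.41 ± 0.28. For these 3 the ratio on array 2 was the largest of the 4, at 0.57, 0.78 and 1.64. Without it the fitted ratios were 0.14, 0.07 and 0.06.

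Of 15 lipoprotein receptors and lipid exporters, 0 passed the adjusted threshold, with a median of −0.01. Only 1 was higher at an unadjusted p under 0.05, against 8.9% of all tested genes in either direction. That gene was Abcg1, a cholesterol exporter, at 0.26 ± 0.10. Abcg5, a subunit of the biliary sterol exporter, was at −0.52 ± 0.24, and Sdc1, a proteoglycan that binds remnants, at 0.64 ± 0.36. Without array 2 Abcg5 was at −0.16 and Sdc1 at 0.10, and the unadjusted count was 0.

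Of 20 transcription factors known to act on apolipoprotein genes, 0 passed the adjusted threshold and 15 had ratios below 0 (median −0.16). At an unadjusted p under 0.05, 3 were lower, against 8.9% of all tested genes in either direction. Nr5a2 was at −0.26 ± 0.10 and Mlxipl, which responds to glucose, at −0.36 ± 0.13, each below 0 on all 4 arrays. Without array 2 the median of the list was −0.10, and 0 were lower at an unadjusted p under 0.05.

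Markers of liver cell types were read alongside, since in whole liver fewer cells of a type cannot be told apart from less RNA per cell. Of 10 hepatocyte markers, 8 had ratios above 0, 0 passed either threshold, and the median was 0.05. Cps1, of the urea cycle, was at 0.46 ± 0.21, Alb, albumin, at 0.22 ± 0.10, and Fgb, a fibrinogen chain, at −0.22 ± 0.11. Without array 2 Cps1 was at 0.16 and 5 of the 10 markers had ratios above 0. In that fit 2 were lower at an unadjusted p under 0.05, which 800 of 17531 genes had in either direction. The mean level of these markers in wild-type female 2 was 17.08, and the other females were at 17.07 to 17.24. That mean joins markers that went opposite ways. On array 2, 5 of the 10 were higher in mutant female 2 than in this liver, up to 1.22 for Cps1. The rest were lower, down to −0.71 for Cyp2e1.

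Of 15 Kupffer cell markers, 13 could be tested. All 13 were higher in mutants at an unadjusted p under 0.05, against 8.9% of all tested genes in either direction. Of them, 0 passed the adjusted threshold, and their median log2 ratio was 0.66. Their mean level was 10.6 to 11.2 in mutants and 9.91 to 10.8 in wild types, with wild-type female 2 the lowest. Marco was at 0.71 ± 0.11, Lyz1 at 0.89 ± 0.16 and Timd4 at 0.70 ± 0.14 (limma, adjusted p = 0.541 for each). Without array 2 the median was 0.43, with Marco at 0.78, Lyz1 at 0.71 and Timd4 at 0.54. In that fit 10 of the 13 had an unadjusted p under 0.05, as did 800 of 17531 genes. Macrophages are known to make Apoe and Apoc1, whose fitted ratios were −0.05 and −0.09. Both ratios set saturated Cy5 spots (39 of 40 for Apoe, 4 of 4 for Apoc1) against Cy3, so they do not show a lack of change. The part of Kupffer cell RNA in these ratios was not tested.

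The 4 neutrophil markers that could be tested, of 6, were all higher in mutants, with a median of 1.07. Each had an unadjusted p under 0.05 (8.9% of all tested genes). S100a8 was at 1.51 ± 0.49, S100a9 at 1.63 ± 0.55 and Camp at 0.41 ± 0.13. Their mean level was 9.07 to 9.62 in mutants and 7.32 to 9.26 in wild types, and again wild-type female 2 had the lowest value. The list median was −0.14, 2.27, 1.53 and 0.78 on arrays 1 to 4, and 1 of the 4 was higher in the mutant on array 1. Without array 2 the fitted median was 0.69, with S100a8 at 1.00 and S100a9 at 0.97, and 0 of the 4 had an unadjusted p under 0.05.

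The 9 sinusoidal endothelial markers had a median of −0.01, with Stab1 at −0.17 ± 0.11, Pecam1 at 0.16 ± 0.10 and Kdr at −0.18 ± 0.13. The 6 stellate cell markers tested, of 8, had a median of 0.07, with Dcn at −0.09 ± 0.11, Hgf at 0.06 ± 0.11 and Lrat at 0.08 ± 0.17. The 4 cholangiocyte markers tested, of 6, had a median of −0.05, with Cftr at −0.62 ± 0.22, Sox9 at 0.16 ± 0.14 and Krt19 at −0.12 ± 0.12. None of these passed the adjusted threshold (limma), and 1, Cftr, had an unadjusted p under 0.05 (8.9% of all tested genes). Without array 2 Stab1 was at −0.10, Kdr at −0.08, Lrat at −0.08 and Cftr at −0.31, and none of these lists had an unadjusted p under 0.05.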

How the data were processed

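Total RNA of frozen liver was labelled from 200 ng, per the labels' protocols, and hybridised to 4 arrays on 1 slide, read in 1 scan. Per the file headers, Agilent Feature Extraction 10.7.3.1 gave each spot an intensity per channel, the median of its pixels and of its local background, and marks of other kinds (0 or 1) for saturation, background, uniformity and population outliers. The deposited series table holds log2 values whose scale and centring the sources used here do not settle. It served as an alternative only. There were 68 per-sample columns that were not used.

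Signals were corrected with normexp (offset 50) and loess within arrays in limma 3.58.1 (R 4.3.3). Control spots had weight 0, non-uniform and outlier spots were left out, and saturated spots were kept. Replicate spots were averaged. A probe was kept where at least 4 samples read it well above background (22031 of 55681), with the brightest probe standing for a gene, which left 17531 genes and transcripts, 11852 of them with a symbol. Symbols came from RefSeq accessions. Python 3.11.15 and matplotlib 3.10.9 drew the figures.

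Genotype was fitted on the log2 ratio of each array with a dye term (2 residual degrees of freedom), so that the array, which the labels pair by replicate number, is the block. Correlations of deviations from the mean of all livers, within the 4 pairs in array order, were 0.545, −0.188, 0.514 and 0.667. Sex was fitted on separate channels after Aquantile, with a within-spot correlation of 0.793. P-values were adjusted by Benjamini-Hochberg over all genes. The fits were tested on simulated data. Levels are log2 values of single probes and were not compared between genes. A ± sign after a ratio gives its standard error. The number of arrays limits the precision, and the labels name 4 biological replicates of each genotype.

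The members, the gene lists and the tests were chosen with earlier results of these data known. All members are named, and of each other list the 3 tested genes with the smallest unadjusted genotype p, except for an item that is not reported here.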

Additional observations from a re-analysis of the deposited data

Results flagged for a closer look

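Dixon's ratio, the gap to the nearest sample over the range, was above its 95% critical value in 3 of 50 sets of 4 samples. Chance flags about 1 in 20 such sets. Among the wild-type livers, Apoa4 in wild-type male 4 (9.62) had a ratio of 0.849. Among the female livers, Apom in wild-type female 2 (12.77) had a ratio of 0.877. Among the array ratios of Apom, array 2 (2.59) had a ratio of 0.846, and it holds the same liver.

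Apob probe A_52_P441070 had mutant over wild-type ratios of opposite sign in the sexes, at −0.13 and −0.54 on the male arrays and 0.31 and 0.38 on the female arrays. The difference, male minus female, was −0.68 ± 0.24 on the log2 scale (limma, adjusted p = 0.859). Apob probe A_55_P1957198 had a difference of 0.15 ± 0.22.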

How the results depend on the processing

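None of the 10 genes passed the adjusted threshold for genotype under 14 of 15 alternatives. With saturated spots left out, only 7 of the 10 were tested. Without array 4 the count was 1, Apom, and 1490 of 17531 genes were called, against 0 with all arrays. Each genotype fit that left out an array kept only 1 array of 1 dye orientation. That array left no residual, so the p-values of such fits do not measure its spread. The number of all genes called was 0 to 3 under the other alternatives. Leaving out an array in turn, the count of members was 0 to 1 for genotype and 0 to 1 for sex, and the median ratio was −0.07 to −0.04. For sex, the member called was Apom, without array 2. With all arrays 37 genes were called by sex. Each sex fit that left out an array kept only 1 array of that sex, whose livers left no residual. Calls of such fits therefore do not measure the spread between livers of that sex. With no replicate block, that is no term for the array that pairs the livers, 2 members were called by sex, Apoa1 and Apoc2, and 3196 genes in all, and for genotype 0 members and 3 genes. The sex fit with no block takes both livers of an array as independent, though sex differed only between arrays. The block changed no other call. Genotype by sex gave 0 members under 4 alternatives and could not be fitted without an array, since no residual degrees of freedom remain.

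The sign of small ratios moved with the setting. With median centring in place of loess the genotype ratio was 0.017 for Apoa2, 0.036 for Apoc1, 0.032 for Apoc2 and 0.079 for Apoe. With the deposited series table it was 0.015 for Apoc1 and 0.0023 for Apoc2. The lowest and highest ratios on leaving out an array were −0.056 and 0.67 for Apoa4, −0.015 and 0.10 for Apoa5, and −0.053 and 0.17 for Apoc3. For sex they were −0.15 and 0.064 for Apoa5 and −1.29 and 0.34 for Apom. The median of the 10 genes was 0.06 with median centring, and 0.04 over the 7 genes with no saturated spot, an alternative chosen after seeing the data, as were the Cy3 comparison, the test of each probe and the gene lists without array 2. The cause of these changes was not tested.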

Other observations

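Saa1 and Saa2, acute-phase proteins that ride on high-density lipoprotein, had the widest sex differences among the other lipoprotein-bound proteins, at 4.95 ± 1.03 and 4.94 ± 1.17 on the log2 scale of male over female (limma, adjusted p = 0.128 and 0.153). Their genotype ratios on arrays 1 to 4 were −0.15, 1.16, 1.40 and −0.53 for Saa1 and 0.26, 1.10, 1.82 and −1.04 for Saa2, so that neither lay on the same side on all 4 arrays, and without array 2 the fitted ratios were 0.05 and −0.0017. The genes are near-identical copies, so that these values are uncertain for either gene alone.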
